A study of Rattus norvegicus with 24 samples.

Results

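The genes described here are 6 components of the circadian clock, measured in livers of peri-adolescent rats. They are Per1 (ENSRNOG00000007387), Per2 (ENSRNOG00000020254), Arntl, also called Bmal1 (ENSRNOG00000014448), Clock (ENSRNOG00000002175), Dbp (ENSRNOG00000021027) and Nr1d1 (ENSRNOG00000009329). They were chosen by their Ensembl IDs as established clock genes, with earlier results of these data known. Each was found among the 18056 gene IDs in the deposited tables. All 6 passed the filter on low counts in every comparison, among 12538 to 12854 genes tested. Livers came from 24 offspring aged about 48 days, with 6 animals in each of 4 groups. Dams had breathed filtered air, or ozone at 0.8 ppm for 4 hours, in the mornings of gestation days 5 and 6. Each exposure had 12 dams. Offspring in all 4 groups themselves breathed ozone weekly after weaning, first 0.4 ppm in postnatal week 5 and then 0.8 ppm in weeks 6 and 7. The groups were males from air-exposed dams (treatment label Air + Ozone), males from ozone-exposed dams (Ozone + Ozone), and females from each kind of dam. The sex stands under a genotype tag. The labels used here give no strain, no litter and no hour at which the livers were taken, so littermates may be among the 24 animals and p-values take the animals as independent.

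The liver clock is a transcriptional feedback loop. The proteins CLOCK and BMAL1 (the product of Arntl) bind as a pair to E-box sequences and activate genes that include Per1, Per2, Nr1d1 and Dbp. PER proteins, with CRY proteins, then inhibit that pair, and REV-ERBα, the product of Nr1d1, represses Arntl through response elements shared with ROR receptors. DBP carries the rhythm to output genes through D-box sequences. In liver, the transcripts of Arntl and of the E-box targets are known to peak at opposite times of day, so a single sample per animal captures whatever phase the animal was in.

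Start-site sequences of Arntl, Per2 and Nr1d1 carry letters of such elements. They are shown because the results turn on how the activator genes and their targets varied together. The 250 bases before each RefSeq start (sequences from RefSeq, build GRCr8, whereas the submitters' processing notes name rn6) were searched on both strands for an E-box (CACGTG), the E-box variant CACGTT, a D-box (TTANGTAA), a ROR/REV-ERB core (TAGGTNA) and a cyclic AMP response element (TGACGTCA). No 2 matches overlapped in the windows printed, where capitals mark each match. Arntl held the ROR/REV-ERB core at 2 places, ending 46 and 10 bases before the start (chr1:176766078-176766327, plus strand). Per2 held a D-box and the variant E-box (chr9:99496994-99497243, minus strand). Nr1d1 has 2 listed starts, the upstream one with the variant E-box on the opposite strand (chr10:84231813-84232062, minus strand) and the other with the canonical E-box (chr10:84229455-84229704, minus strand).
Arntl: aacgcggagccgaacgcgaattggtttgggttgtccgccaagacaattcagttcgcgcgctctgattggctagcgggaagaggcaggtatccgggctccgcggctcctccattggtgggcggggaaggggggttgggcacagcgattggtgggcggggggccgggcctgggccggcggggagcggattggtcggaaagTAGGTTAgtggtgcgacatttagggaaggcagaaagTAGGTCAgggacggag
Per2: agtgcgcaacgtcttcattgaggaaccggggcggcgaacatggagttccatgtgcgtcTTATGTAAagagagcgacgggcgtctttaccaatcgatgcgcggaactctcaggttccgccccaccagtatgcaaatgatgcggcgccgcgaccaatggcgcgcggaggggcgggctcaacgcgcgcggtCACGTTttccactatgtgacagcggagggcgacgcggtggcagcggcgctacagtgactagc
Nr1d1, upstream start: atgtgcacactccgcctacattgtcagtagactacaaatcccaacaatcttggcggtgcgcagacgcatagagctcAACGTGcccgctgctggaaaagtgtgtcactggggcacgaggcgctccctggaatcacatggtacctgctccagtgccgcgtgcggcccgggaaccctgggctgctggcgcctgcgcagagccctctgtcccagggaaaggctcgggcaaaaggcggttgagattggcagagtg
Nr1d1, second start: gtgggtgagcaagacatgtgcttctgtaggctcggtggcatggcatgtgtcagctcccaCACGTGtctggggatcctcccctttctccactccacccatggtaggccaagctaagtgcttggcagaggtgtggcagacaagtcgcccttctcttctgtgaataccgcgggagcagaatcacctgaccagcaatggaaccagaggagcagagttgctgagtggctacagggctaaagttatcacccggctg
Among 33469 windows of the same length in the RefSeq table, 7.55% held the ROR/REV-ERB core, 5.59% the E-box, 4.07% its variant, 2.04% the D-box and 1.59% the cyclic AMP element, which no member held. The glucocorticoid response element was in 0.373% of these windows, and no member held it either. No match was present in the windows listed for Per1, Clock and Dbp, which says only that these letters are not in those 250 bases. A match describes the sequence and is no evidence of binding.

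Library totals ran from 8462290 to 14564662 estimated counts, apart from a library of 36232072 (female, ozone-exposed dam, replicate 6). Each member was counted in every library, with 9 to 219 counts for Arntl, 19 to 289 for Per1, 72 to 445 for Per2, 199 to 1745 for Clock, 342 to 2209 for Nr1d1 and 398 to 3844 for Dbp. Levels are given as CPM, counts scaled to a common library total after TMM normalization, and were not divided by transcript length, so they compare animals within a gene and not genes with each other. In such bulk tissue, fewer cells of a type and less RNA per cell cannot be told apart. The markers that would check the tissue were not matched to the gene IDs used here. Counts of Nr1d1 were fractional (by more than 0.01) in 23 of 24 libraries and those of Dbp in 6. The rule that gave fractions, and whether other genes shared these reads, is not stated in the sources. Nr1d1 is known to overlap the gene of thyroid hormone receptor alpha on the opposite strand, and the strand setting of the counting is not given in the sources used here.

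In offspring of air-exposed dams, male and female livers differed in 4 of the 6 clock genes: both genes of the activator pair were lower in males, and Dbp and Per2 were higher. Arntl was 3.08-fold lower and Clock 2.06-fold lower in males, while Dbp was 3.01-fold and Per2 1.92-fold higher. These 4 calls in 6 genes stand against a background in which 51.5% of all 12854 genes tested were called in that comparison (edgeR, adjusted p under 0.05), so the share of members called was near that of genes in general. The median size of the difference was 0.99 on the log2 scale over the 6 members and 0.44 over all genes tested. The members also varied more among animals than most genes (given below), and these sizes were not compared with genes of like spread.

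Clock, which encodes a DNA-binding partner of BMAL1, ranged from 17.6 to 39.6 CPM in males from air-exposed dams, with a median of 29.4, and from 44.7 to 78.7 CPM in females, with a median of 58.0. Every male was below every female, and 26.7% of all genes likewise had values that did not overlap between these groups. Means were 28.9 ± 7.18 CPM and 59.2 ± 11.04 CPM (SD, n = 6 each). The log2 difference, male against female, was -1.04 ± 0.19 (SE; edgeR adjusted p = 6.84e-05).

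Dbp, the D-box activator that relays the rhythm to liver output genes, ranged from 145 to 340 CPM in those males (median 222) and from 39.1 to 108 CPM in the females (median 74.1). Here every male was above every female. The means were 225 ± 65.7 CPM and 73.6 ± 24.4 CPM (SD, n = 6 each), and the log2 difference was 1.59 ± 0.30 (SE; edgeR adjusted p = 0.000168).

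Arntl ranged from 0.796 to 6.01 CPM in males (median 2.26) and from 3.31 to 10.8 CPM in females (median 9.13). The groups overlapped through a single male, replicate 1, while 5 of 6 males lay below the lowest female. Means were 2.65 ± 1.78 CPM and 7.96 ± 3.16 CPM (SD, n = 6 each), and the log2 difference was -1.62 ± 0.42 (SE; edgeR adjusted p = 0.00253).

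Per2, a repressor of the loop, ranged from 11.3 to 38.9 CPM in males (median 28.6) and from 6.28 to 30.2 CPM in females (median 9.34). All 6 males were above the female median, but the ranges overlapped widely. Its log2 difference of 0.94 ± 0.39 (SE) passed narrowly (edgeR adjusted p = 0.0463). The call was lost without male air-dam replicates 2, 3, 4, 5 or 6, female air-dam replicates 1, 3, 4 or 5, or female ozone-dam replicates 2, 3 or 5. It was also lost without the filter on low counts (0.94, adjusted p = 0.0691). The log2 difference ranged from 0.77 to 1.42 over the 24 fits that each left out 1 library.

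Per1, the other period gene, and Nr1d1, the repressor of Arntl, did not pass the test between the sexes. Per1 ranged from 2.18 to 14.5 CPM in males and from 1.30 to 6.36 CPM in females, a log2 difference of 0.83 with a 95% interval of -0.07 to 1.73 (edgeR adjusted p = 0.115). Without male air-dam replicate 1, its difference was 1.03 (adjusted p = 0.0462). Nr1d1 ranged from 67.6 to 93.0 CPM in males and from 36.7 to 86.4 CPM in females. Its log2 difference was 0.49, with a 95% interval of -0.02 to 1.002 (edgeR adjusted p = 0.098).

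The library names in the labels have 2 forms, and what the forms stand for is not stated. Each group from air-exposed dams held 3 libraries of each form, and each group from ozone-exposed dams 2 and 4. With group held constant, the second form minus the first was 0.49 for Dbp, 0.31 for Per1, 0.24 for Per2, 0.15 for Nr1d1, -0.29 for Clock and -0.47 for Arntl on the log2 scale, differences that were not tested. The form was a term in every main fit of differences between groups. It was not removed in the correlations and rankings given below, where animals were permuted within groups and not within forms. Within the first form alone, the sex differences with air-exposed dams were -0.89 for Clock, 1.49 for Dbp, -1.30 for Arntl and 0.90 for Per2. Within the second they were -1.18, 1.72, -1.95 and 1.02 in the same order. Directions were the same in both, and Clock passed the test in each form alone, whereas Dbp, Arntl and Per2 passed in the second form only (adjusted p = 0.0523, 0.135 and 0.391 in the first).

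**Figure D1:**
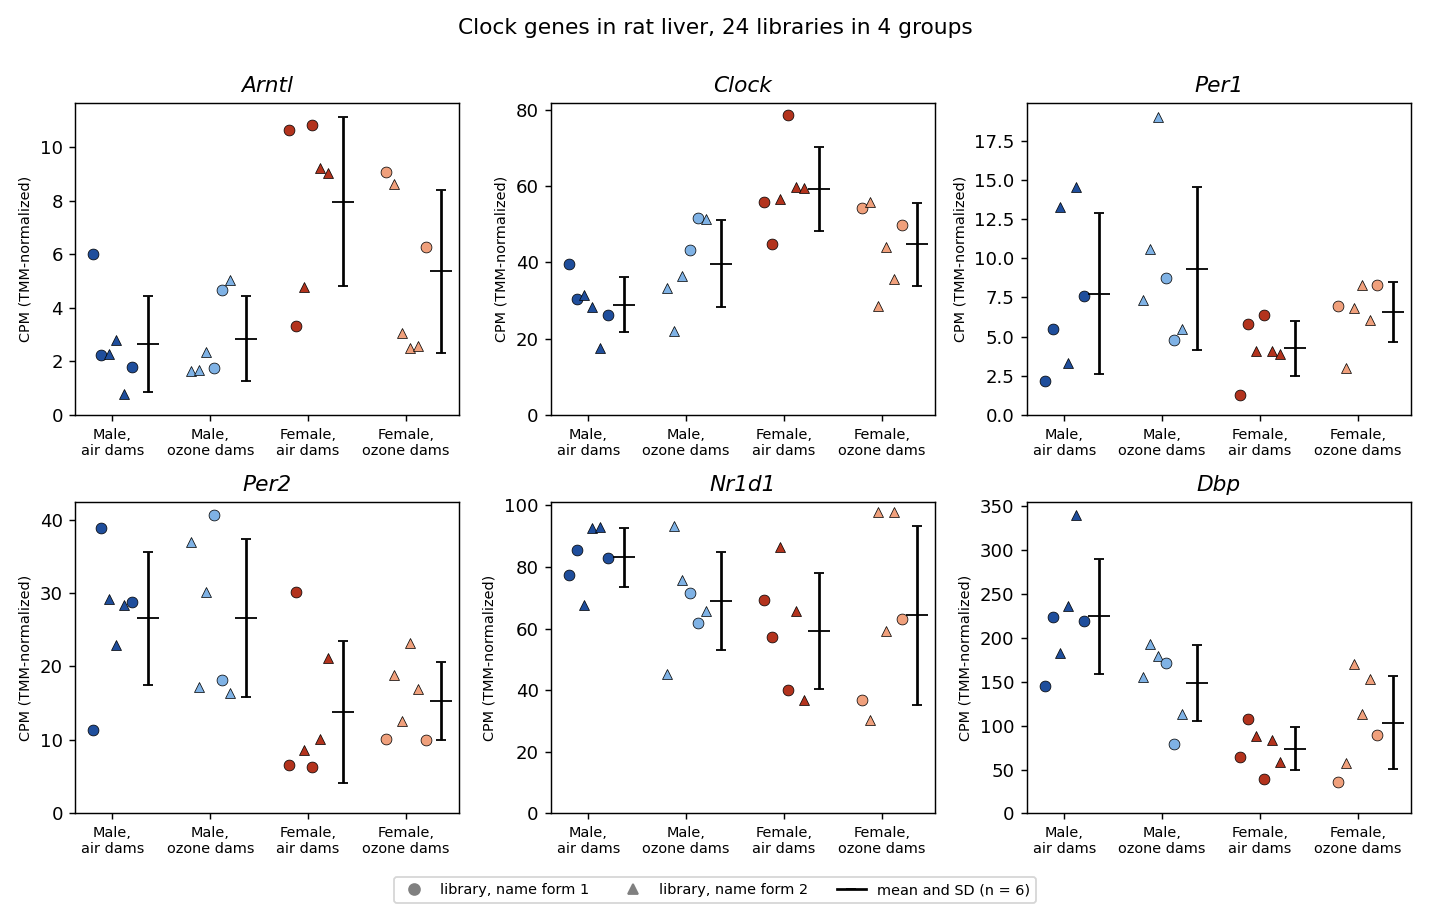
CPM (vertical axis, linear from 0) of each clock gene in every library, by group. Circles and triangles are libraries of the 2 name forms, and bars give the mean and SD of 6 animals. Clock and Dbp separate males from females completely when the dams breathed air, as did 26.7% of all genes tested. When the dams breathed ozone, all 6 clock genes overlap between the sexes, and only 3.80% of all genes tested did not.

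In offspring of ozone-exposed dams, 0 of the 6 clock genes passed the test between males and females, where 5.76% of 12854 genes did (edgeR). At an unadjusted p under 0.05 there was 1 member, Per2, and DESeq2 and limma-voom also called 0, each with 3 at an unadjusted p under 0.05. The groups overlapped for all 6 genes, where 3.80% of genes had values that did not overlap. Clock ranged from 22.0 to 51.6 CPM in males (median 39.8, mean 39.7 ± 11.4, SD, n = 6) and from 28.5 to 55.8 CPM in females (replicates 4 and 6 in the middle at 44.1 and 49.9 CPM, mean 44.7 ± 10.9). The 2 groups overlapped over most of their ranges, and the log2 difference was -0.17 with a 95% interval of -0.55 to 0.21.

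Dbp ranged from 79.0 to 193 CPM in males (median 163) and from 35.8 to 170 CPM in females (median 102). Here 3 males were above every female and 2 females below every male, with a log2 difference of 0.56 and a 95% interval of -0.05 to 1.17. Arntl lay between 1.63 and 5.02 CPM in males and between 2.51 and 9.08 CPM in females, a difference of -0.85 (interval -1.72 to 0.01). Per2 lay between 16.4 and 40.6 CPM in males and between 10.05 and 23.2 CPM in females, a difference of 0.82 (interval 0.01 to 1.62, edgeR adjusted p = 0.264). For Per1 the difference was 0.46 (interval -0.40 to 1.32) and for Nr1d1 0.11 (interval -0.40 to 0.62). The intervals of Arntl, Dbp, Per2 and Per1 include differences of more than 2-fold, which is 1 on the log2 scale.

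Whether the sex difference itself changed with maternal exposure was tested as an interaction, which is the same contrast as the maternal difference in males minus that in females. Clock alone of the 6 genes passed (edgeR adjusted p = 0.0193), where 23.3% of 12854 genes passed. Its interaction was 0.87 ± 0.26 on the log2 scale (SE, 95% interval 0.33 to 1.41), from a sex difference of -1.04 after maternal air and -0.17 after maternal ozone. The call held in each of the 24 fits that left out 1 library (0.75 to 0.98, adjusted p from 0.00391 to 0.0409). Within the name forms the interaction was 0.76 and 0.99, neither of which passed alone (adjusted p = 0.21 and 0.119, from 10 and 14 libraries).

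The interaction of Dbp was -1.03 ± 0.42 (SE, edgeR adjusted p = 0.0766) and did not pass. DESeq2 called it (adjusted p = 0.0387), as did edgeR without female air-dam replicate 2 (-1.25), female ozone-dam replicate 1 (-1.21) or female ozone-dam replicate 2 (-1.16). Intervals for the other members were wide: -0.45 to 1.99 for Arntl, -1.61 to 0.86 for Per1, -1.26 to 1.003 for Per2 and -1.10 to 0.34 for Nr1d1. Clock was thus the only member whose change of the sex difference passed, which does not show that the others were unchanged. The interval of Dbp (-1.90 to -0.17) excluded 0 although its adjusted p missed the threshold. The intervals of Arntl, Per1, Per2 and Nr1d1 include 0 and also sizeable changes.

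In males, maternal ozone went with lower Dbp, the only member called of 6 (edgeR, adjusted p = 0.0442), where 21.3% of 12541 genes tested were called. Dbp ranged from 145 to 340 CPM in males from air-exposed dams (median 222) and from 79.0 to 193 CPM in males from ozone-exposed dams (median 163). All 6 males from ozone-exposed dams were below the median of the other group, 2 of them below its lowest animal, but the ranges overlapped. The groups overlapped for the other 5 members too, where 5.24% of genes had values that did not overlap. The mean went from 225 ± 65.7 to 149 ± 43.6 CPM (SD, n = 6 each), and the log2 difference was -0.65 ± 0.21 (SE), or 1.57-fold lower. This call was marginal. It was lost without air-dam replicates 2, 4, 5 or 6 and without ozone-dam replicates 1, 3, 5 or 6, where the log2 difference lay between -0.68 and -0.50 and adjusted p between 0.062 and 0.129. It was also lost without the name-form term (-0.59, adjusted p = 0.0797), without the filter (-0.66, adjusted p = 0.0572) and in the fit of all 24 libraries (-0.67, adjusted p = 0.115), and within the forms the differences were -0.66 and -0.64, neither of which passed.

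Clock was higher in males from ozone-exposed dams by 0.51 ± 0.19 on the log2 scale (SE), which did not pass (edgeR adjusted p = 0.0646). Its range was 22.0 to 51.6 CPM against 17.6 to 39.6 CPM, and 3 of the 6 animals exceeded the highest male from an air-exposed dam. DESeq2 called it (adjusted p = 0.0427), as did edgeR without air-dam replicate 3 (0.60) or ozone-dam replicate 2 (0.60). Nr1d1 ranged from 45.2 to 93.4 CPM against 67.6 to 93.0 CPM, a difference of -0.28 (interval -0.60 to 0.04) that passed only without ozone-dam replicate 2 (-0.38, adjusted p = 0.0422). For Arntl, Per1 and Per2 the estimates were 0.23 (interval -0.66 to 1.13), 0.18 (-0.78 to 1.14) and 0.01 (-0.68 to 0.70). The median size of the difference was 0.26 on the log2 scale both over the 6 members and over all genes tested.

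In females, 0 of the 6 clock genes passed the test of maternal exposure, where 0.271% of 12538 genes did (edgeR). That background of 34 genes was unstable, at 332 with DESeq2, 0 without air-dam replicate 6 and 135 without air-dam replicate 1. The groups overlapped for all 6, where 1.54% of genes had values that did not. DESeq2 and limma-voom also called 0 members, and 2 had an unadjusted p under 0.05. These were Clock and Per1. Clock ranged from 28.5 to 55.8 CPM in females from ozone-exposed dams against 44.7 to 78.7 CPM in females from air-exposed dams. All 6 were below the median of the air group and 3 were below its lowest animal, a difference of -0.37 (interval -0.72 to -0.03, edgeR adjusted p = 0.282).

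Per1 ranged from 3.02 to 8.28 CPM against 1.30 to 6.36 CPM, and 4 of 6 females from ozone-exposed dams exceeded every female from an air-exposed dam, a difference of 0.69 (interval 0.02 to 1.36, edgeR adjusted p = 0.306). Arntl had a median of 4.67 CPM against 9.13 CPM, a difference of -0.53 (interval -1.36 to 0.29). All 6 females from ozone-exposed dams were below the Arntl median of the air group. Dbp had medians of 102 and 74.1 CPM, a difference of 0.35 (interval -0.45 to 1.16). Estimates for Per2 and Nr1d1 were both 0.06, with intervals of -0.90 to 1.02 and -0.63 to 0.75. For Per2, all 6 females from ozone-exposed dams were above the median of the air group (9.34 CPM). With 1 library left out, its estimate ran from -0.13 to 0.51, the latter without air-dam replicate 2 (30.2 CPM). The median size of the difference was 0.36 on the log2 scale over the 6 members and 0.18 over all genes tested. Here too the sizes were not compared with genes of like spread, so they do not show a larger shift of clock genes.

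**Figure D2:**
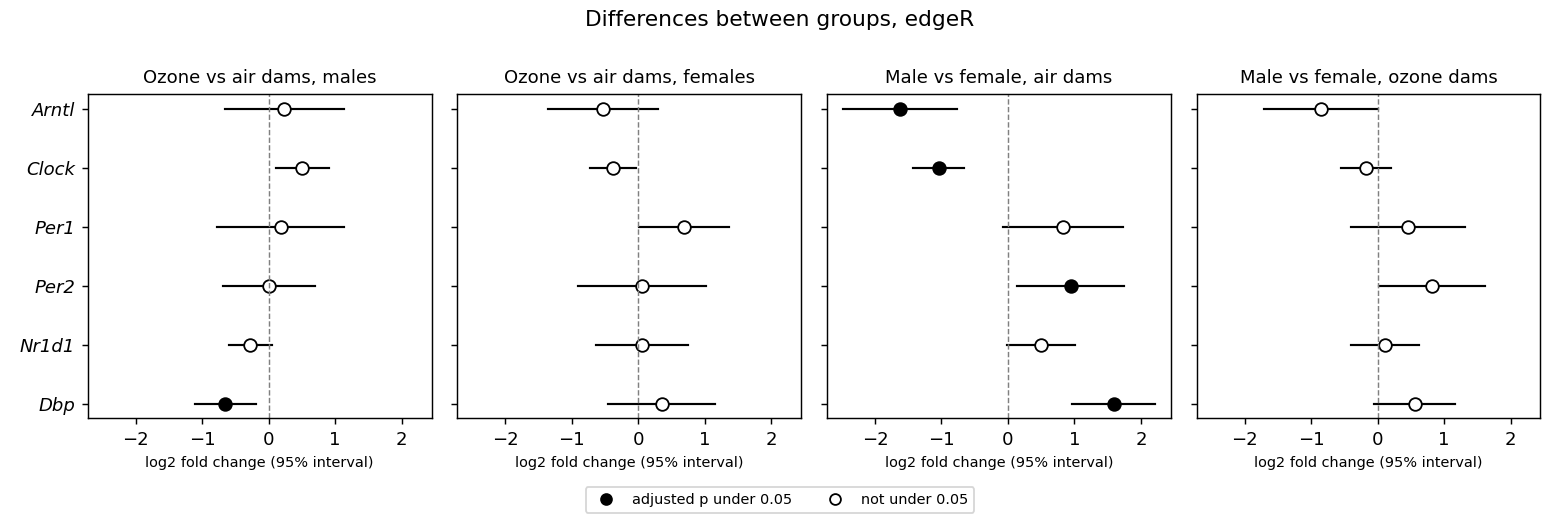
Log2 fold changes (horizontal axis) of the 6 clock genes in 4 comparisons, from edgeR, with 95% intervals as lines. Filled points passed at an adjusted p under 0.05: Dbp in males (-0.65), and Arntl, Clock, Per2 and Dbp between the sexes with air-exposed dams. The 4 panels share groups and are not independent of each other.

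By mean level, the groups stood in the same order for Arntl and Clock, and in the reverse order for Dbp and Nr1d1. The medians break this order for Arntl, at 2.26 CPM in males of air-exposed and 2.04 CPM in males of ozone-exposed dams, and for Nr1d1, at 61.6 CPM in females of air-exposed and 61.3 CPM in females of ozone-exposed dams. Clock ran from females of air-exposed dams (59.2 CPM) through females of ozone-exposed dams (44.7) and males of ozone-exposed dams (39.7) to males of air-exposed dams (28.9). Dbp ran from 73.6 through 103 and 149 to 225 CPM over the same sequence. No neighbours in the order of Clock or of Arntl passed the test of their difference, and in the order of Dbp only the 2 groups of males did. Mean Arntl over that sequence was 7.96, 5.36, 2.85 and 2.65 CPM, and mean Nr1d1 was 59.2, 64.2, 68.9 and 83.1 CPM. For Per2 the groups of males shared a mean of 26.6 CPM and the females had 15.3 CPM with ozone-exposed and 13.8 CPM with air-exposed dams. For Per1 the order was males of ozone-exposed dams (9.32 CPM), males of air-exposed dams (7.73), females of ozone-exposed dams (6.57) and females of air-exposed dams (4.25). No neighbours in the order of Nr1d1 passed a test, and for Per1 and Per2 the neighbours that differ in both sex and maternal exposure were not tested.

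Clock genes varied widely among animals of a single group. With group and name form fitted, the residual SD of log2 CPM was 0.79 for Per1, 0.76 for Arntl, 0.68 for Per2, 0.55 for Dbp, 0.47 for Nr1d1 and 0.36 for Clock, against a median of 0.29 over 12854 genes. Since low counts raise this SD, each gene was also ranked among the 1000 genes nearest to it in mean level. There the members lay between the 89.4th percentile (Clock) and the 98.1th (Per2), and Arntl lay at the 96th. Within a group, the highest animal exceeded the lowest by 7.55-fold for Arntl and 6.67-fold for Per1 in males from air-exposed dams, and by 4.76-fold for Dbp in females from ozone-exposed dams. The narrowest range of all was that of Nr1d1 in males from air-exposed dams, at 1.37-fold.

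Part of this variation was shared between genes, most of all between Arntl, Clock and Dbp. Across 24 animals, after subtraction of the 4 group means, 7 of 15 gene pairs were correlated (permutation within groups, 100000 resamples, two-sided, adjusted over 15 pairs). The smallest |r| among those 7 was 0.57, a size reached by 4.13% of all pairs of the 12854 genes tested. The 7 were Arntl with Clock, 5 of the 8 pairs of an activator gene with a target, and 1 of the 6 pairs of targets (Dbp with Nr1d1). Arntl and Clock rose and fell together among animals (Pearson r = 0.81, Spearman rho = 0.81, permutation p = 4e-05, adjusted 0.0002), with r of 0.95 and 0.75 in males and 0.75 and 0.79 in females (air-exposed and ozone-exposed dams, n = 6 each). Arntl and Dbp were opposed (r = -0.83, rho = -0.88, permutation p = 1e-05, the smallest these resamples can give, adjusted 0.00015), with r between -0.91 and -0.79 in the 4 groups. Clock and Dbp were opposed as strongly (r = -0.80, rho = -0.84, permutation p = 3e-05, adjusted 0.0002), with r between -0.96 and -0.75. Dbp and Nr1d1 went together (r = 0.75, rho = 0.77, permutation p = 0.00096, adjusted 0.0036), with r from 0.38 in males from ozone-exposed dams to 0.91 in females from ozone-exposed dams.

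These 4 pairs also passed when the 2 animals farthest from the median of the first gene were left out (r = 0.74, -0.83, -0.85 and 0.75 in the same order). Within name form 1 (10 libraries) r was 0.86, -0.83, -0.81 and 0.78, and within form 2 (14 libraries) it was 0.78, -0.81, -0.83 and 0.85. The second form passed alone for each of the 4 pairs and the first for none, with adjusted p between 0.0698 and 0.194. The values share a library's depth and normalization, as do those of every pair, and the name form was not removed from them.

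The period genes followed more loosely. Per1 and Arntl (r = -0.60, rho = -0.47, adjusted permutation p = 0.009 and 0.0551), Per2 and Arntl (r = -0.60, rho = -0.57, adjusted 0.009 and 0.0187) and Clock and Nr1d1 (r = -0.57, rho = -0.60, adjusted 0.009 and 0.00981) were the other 3 pairs to pass on Pearson's r. None of these 3 passed without the 2 farthest animals (r = -0.48, -0.39 and -0.56, adjusted p = 0.0728, 0.168 and 0.0728). Those animals moved r for the 2 pairs with a period gene, whereas for Clock and Nr1d1 r was nearly the same and its adjusted p no longer met the threshold. Per2 and Arntl had an r of -0.94 within name form 1 and -0.09 within form 2. Per1 and Per2, the paralogous repressors, had an r of 0.36 (rho = 0.18, adjusted permutation p = 0.142), with r from -0.33 to 0.67 in the 4 groups. Per2 and Nr1d1, both targets of the same activators, had an r of -0.15 (adjusted permutation p = 0.533), and Per1 and Nr1d1 had 0.10 (adjusted 0.604).

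**Figure D3:**
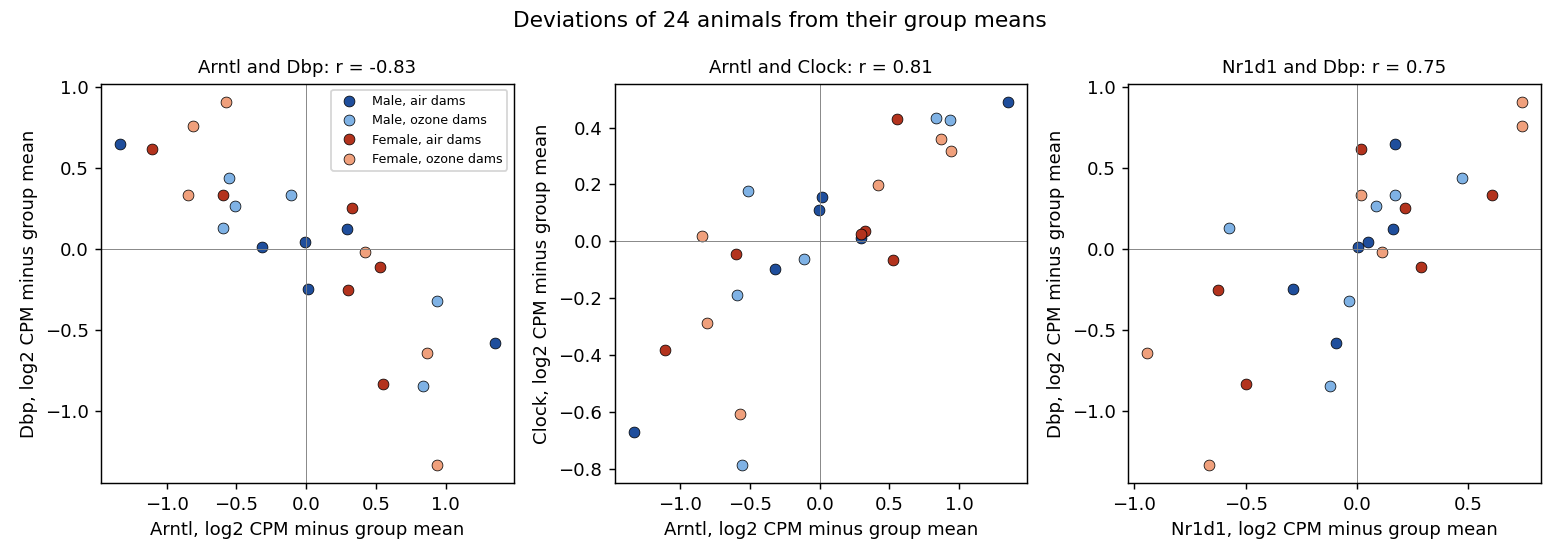
Deviation of each of 24 animals from its group mean, in log2 CPM, for 3 pairs of clock genes, coloured by group. Arntl and Dbp lay on opposite sides of their group means in 22 animals (r = -0.83). Arntl and Clock lay on the same side in 20 (r = 0.81), and Nr1d1 and Dbp in 21 (r = 0.75).

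Single animals show the pattern. Among males from air-exposed dams, replicate 1 had the highest Arntl (6.01 CPM) and Clock (39.6 CPM) and the lowest Dbp (145 CPM), Per1 (2.18 CPM) and Per2 (11.3 CPM) of its group. Its Nr1d1 (77.3 CPM) was second lowest. Replicate 5 had the lowest Arntl (0.796 CPM) and Clock (17.6 CPM) and the highest Dbp (340 CPM), Nr1d1 (93.0 CPM) and Per1 (14.5 CPM), but its Per2 (28.3 CPM) lay just below the group median of 28.6 CPM. Both extremes therefore lay in the same group, in genes of both arms of the loop. In females from air-exposed dams, replicate 4 had the highest Arntl (10.8 CPM) and Clock (78.7 CPM) with the lowest Dbp (39.1 CPM) and Per2 (6.28 CPM), and replicate 2 had the lowest Arntl (3.31 CPM) and Clock (44.7 CPM) with the highest Dbp (108 CPM) and Per2 (30.2 CPM). Per1 did not follow there, since replicate 4 also had the highest Per1 of that group (6.36 CPM).

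Some offspring of ozone-exposed dams showed the same opposition, and others did not. Among the females, replicate 3 had the lowest Clock (28.5 CPM) and the highest Dbp (170 CPM) and Nr1d1 (97.8 CPM), and replicate 1 the highest Arntl (9.08 CPM) and the lowest Dbp (35.8 CPM). Among the males, replicates 5 and 6 had the highest Arntl (4.67 and 5.02 CPM) and Clock (51.6 and 51.3 CPM) with the lowest Dbp (79.0 and 114 CPM). Replicate 2 had the lowest Clock (22.0 CPM) with the highest Dbp (193 CPM) and Nr1d1 (93.4 CPM). Male replicate 1 did not follow, with the lowest Arntl (1.63 CPM) and also the lowest Nr1d1 (45.2 CPM). Its Dbp (155 CPM) was below the group median of 163 CPM. Male replicate 4 had an Arntl of 1.73 CPM, below the median of 2.04 CPM, with Clock (43.2 CPM) above its median of 39.8 CPM.

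Among all 12853 other genes, some members ranked close to the top of the genes most similar or most opposed to each other and others did not, as a description of these 24 animals with group means removed. Arntl was the gene most opposed to Dbp of all, and Clock was the fourth most opposed to it (rank 4). Clock was the third most similar gene to Arntl (rank 3), and Dbp ranked 4 among those most opposed to Arntl. Nr1d1 ranked 20 among the genes most similar to Dbp, and Dbp ranked 10 among those most similar to Nr1d1. For Per1, Arntl ranked 23 among the most opposed genes, while Per2 ranked 627 among the most similar. Other pairs were far from the ends: Per2 ranked 3031 and Per1 1980 among the genes most opposed to Clock, Per1 ranked 1811 among those most similar to Dbp, and Nr1d1 ranked 3976 among those most similar to Per1. The closest gene to Dbp had an r of 0.90 and the gene most opposed to Arntl an r of -0.91, and neither ID could be paired with a name here.

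**Figure D4:**
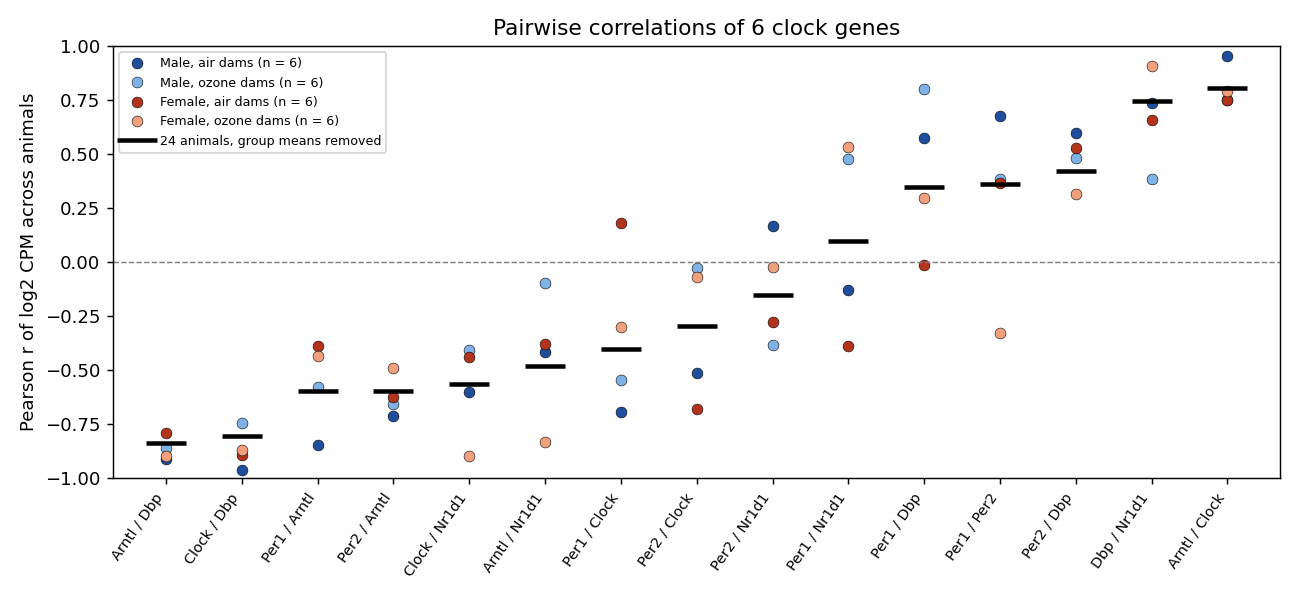
Pearson r (vertical axis) of log2 CPM across animals for the 15 pairs of clock genes, ordered by the value over 24 animals with group means removed (black bars). Points are the 4 groups of 6 animals. Arntl with Dbp and Clock with Dbp were negative, and Arntl with Clock positive, in all 4 groups, whereas Per1 with Nr1d1 was positive in 2 and negative in 2.

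Rat numbers in the labels ran in ranges that do not overlap between the groups: 15 to 23 and 63 to 72 in females, and 37 to 48 and 87 to 97 in males, with air-exposed and ozone-exposed dams respectively. Whether the numbers follow the order in which livers were collected is not stated. If they do, an effect of that order on the group differences cannot be told apart from that of sex and maternal exposure.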

How the data were processed

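Liver polyA-selected RNA of 24 rats was sequenced. Partek, STAR 2.6.1d, rn6 and DESeq2 are named in the submitters' processing notes, without role or order. The authors deposited estimated counts for each Ensembl gene in 2 tables, males and females apart, with no scaling for library size or length per the file headers and values. The annotation and strand setting are not given in those sources. The tables' 23 other library columns belong to no labelled sample and stayed unused. The tables pair no ID with a name, and 0 IDs matched the RefSeq table, so the other clock genes, liver and cell type markers and glucocorticoid-responsive genes listed for this work have no values. The names of the 6 members come with the list of IDs. The members and lists were chosen with earlier results of these data known, and all 6 members are named in every comparison.

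Counts were rounded to whole numbers and tested with edgeR 4.0.16 (R 4.3.3) by the robust quasi-likelihood test, with TMM, filterByExpr (minimum count 10, minimum total 15) and library name form as a term. Each sex was fitted alone for maternal exposure, and all 24 libraries together for the sex differences and the interaction. P-values were Benjamini-Hochberg adjusted over all genes, and calls are at 0.05. A standard error is the log2 fold change divided by the square root of F. Log2 CPM used a prior count of 2. The fits were also run on simulated counts of independent libraries without a name-form effect, which cannot show how the calls fare with littermates among the animals. Within each group, replicate pairs differed by 17.2 or more in chi-square per degree of freedom, more than sampling noise, and each was counted as 1 sample. Alternatives were DESeq2 1.42.0, limma-voom (limma 3.58.1), RLE normalization, no filter, no form term, each form alone, a joint fit of both sexes, and leaving out every library singly.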

Additional observations from a re-analysis of the deposited data

Results flagged for a closer look

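For Clock, the maternal difference in males and that in females differed by 0.87 on the log2 scale (edgeR test of the interaction, adjusted p = 0.0193). The male difference was 0.51 and the female difference -0.37, and neither passed its own test (adjusted p = 0.0646 and 0.282). In males, 5 of 6 animals from ozone-exposed dams were above the median of the air group, and in females 6 of 6 were below it. The hour of collection, litter and order of handling are not in the labels used here, and their part in the result was not tested. No animal lay apart from the other 5 of its group by Dixon's criterion in any of the 6 genes.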

How the results depend on the processing

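The sex difference with air-exposed dams kept its direction under every alternative for each of the 6 genes, and that of Clock also kept its call. Member genes called in males for maternal exposure numbered 1, but 2 with DESeq2 and 0 without the filter, without the form term, within form 1, within form 2 and in the fit of all 24 libraries (0 to 3 with 1 library left out). For the interaction, 1 member was called, but 2 with DESeq2, 0 within form 1 and 0 within form 2 (1 to 2 with 1 library left out). Between the sexes with air-exposed dams, 4 were called, but 3 without the filter and 1 within form 1 (3 to 5 with 1 library left out). Of 15 pairs, 7 were correlated, but 0 within form 1, 4 within form 2 and 4 without the 2 farthest animals.

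Over all genes, 2670 were called in males, but 861 within form 1 and 121 within form 2 (1684 to 3740 with 1 library left out). In females 34 were called, but 332 with DESeq2, 66 without the form term, 9 within form 1, 0 within form 2 and 1 in the fit of all libraries (0 to 135 with 1 library left out). At an unadjusted p under 0.05, 2001 genes differed in females. The interaction called 2994 genes, but 432 within form 1 and 450 within form 2. Between the sexes, 6621 genes were called with air-exposed dams but 3404 within form 1, and 741 with ozone-exposed dams but 71 within form 1 and 412 within form 2. Fewer libraries entered the fits of a single form.

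The estimates that changed sign were not called in any fit. In males, the maternal difference of Per2 (0.01) was -0.021 with limma-voom, -0.00371 without the filter, -0.00462 without the form term, -0.079 within form 2 and -0.016 in the fit of all libraries, and that of Arntl (0.23) was -0.076 within form 1. In females within form 1, it was -0.52 for Per2, -0.17 for Dbp and -0.15 for Nr1d1. The interaction of Per2 was 0.66 within form 1. With ozone-exposed dams, the sex difference of Per1 was -0.17 within form 1 and that of Nr1d1 -0.018 within form 2. With 1 library left out, the male maternal difference ranged from -0.063 to 0.37 for Per1, -0.21 to 0.15 for Per2 and -0.048 to 0.53 for Arntl. In females it ranged from -0.13 to 0.51 for Per2 and -0.11 to 0.20 for Nr1d1. The interaction of Per2 ranged from -0.57 to 0.059, and the sex difference of Nr1d1 with ozone-exposed dams from -0.034 to 0.26. The cause was not tested.

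Correlations that changed sign were r = -0.26 for Per1 with Nr1d1 and 0.24 for Per2 with Nr1d1 within form 1, and 0.16 for Per2 with Clock and -0.28 for Per2 with Dbp within form 2. With rat number, over 24 animals with group means removed, none of the 6 genes passed (r from -0.05 to 0.20, rho from -0.03 to 0.19, permutation p from 0.394 to 0.813, adjusted 0.813 for r and 0.998 for rho). The r with rat number was -0.022 for Per1, -0.030 for Per2, 0.23 for Arntl and -0.038 for Dbp within form 2, and -0.32 for Clock within form 1. No paired analysis was possible because the labels give no replicate numbers that groups share. Depth limits Arntl most, with as few as 9 counts in a library.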

Other observations

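Within single groups, Clock and rat number were related in opposite directions in the 2 groups of males, with an r of -0.77 for air-exposed dams and 0.87 for ozone-exposed dams (6 animals each). Arntl had -0.75 and 0.78 in the same groups, and Dbp 0.68 and -0.66. Since Arntl, Clock and Dbp varied together, these are not separate observations. Per1 had 0.56 and -0.50 and Per2 0.43 and -0.29, whereas Nr1d1 did not reverse (0.41 and 0.05). In females, the r of Clock was 0.30 and -0.16, that of Arntl 0.36 and -0.40, and that of Dbp -0.18 and 0.54. Per1 had 0.29 and 0.43 there, Per2 0.24 and 0.002, and Nr1d1 -0.48 and 0.53. These values describe 6 animals each and were not tested. The name form was not removed from them, and it was spread unevenly along rat number in males. Libraries of form 1 were rats 37, 39 and 48 with air-exposed dams, and rats 95 and 96 with ozone-exposed dams. The part of the name form in these values was not tested. What the rat numbers follow is not stated in the labels.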
